A study of Mus musculus with 12 samples.

Results

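The 38 genes described here encode complement and coagulation factors, the plasma proteins of innate defence and of blood clotting, together with some of their inhibitors and the enzymes of clot removal. They were taken as a list of gene symbols, not by their values, and all 38 were found among the 23420 gene symbols of the count tables. Livers of 12 C57BL/6 mice of about 20 weeks of age had been collected at Zeitgeber time (ZT) 10, that is 10 h after lights on in a cycle of 12 h of light and 12 h of darkness. The groups were wild type females, Siah2 KO females, wild type males and Siah2 KO males, with 3 mice in each. Siah2 encodes a ubiquitin ligase, an enzyme that marks other proteins for degradation, and it is lacking in the Siah2 KO mice (Siah2-/-). The study asked whether its loss changed liver gene expression, and whether it did so alike in both sexes. The sources used here do not restrict the knockout to the liver, so effects of its loss in the liver and in other organs cannot be told apart. According to the study, homozygotes of each genotype founded related lines, so genotype and line cannot be told apart either. The study describes RNA of individual livers for this experiment, while the sample labels mention pools of 3 mice, and the study's description was followed here.

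Complement proteins are made mainly by hepatocytes and circulate as inactive precursors. Mannose-binding lectins, antibodies or spontaneous turnover start the cascade, all routes cleave C3, and the terminal proteins C5 to C9 then build a pore in the target membrane. Clotting factors form a second cascade of liver proteases that ends with thrombin cutting fibrinogen into fibrin, and plasmin, made from plasminogen, dissolves the clot. In rodents, several of these genes are known to be expressed at different levels in female and male liver.

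Transcripts were counted with QuantSeq, in which reverse transcription starts at the poly(A) tail, so reads come from the 3′ end and longer transcripts do not yield more of them. Values are counts relative to library size (CPM), scaled by the trimmed mean of M values (TMM) over the 12 libraries, and the 3 values of a group are always given in the order of the mouse numbers: 1089, 1090 and 1091 for wild type females, 1070, 1104 and 1105 for Siah2 KO females, 1055, 1086 and 1087 for wild type males, and 1075, 1076 and 1081 for Siah2 KO males. The libraries held 1293688 to 4056144 counts. Siah2 itself was read at 11.4 to 27.0 CPM in wild type and 9.39 to 17.3 CPM in Siah2 KO mice, and since the sources used here do not place the deletion relative to the counted 3′ end, these values do not check the genotype. Xist and Ddx3y matched the labelled sex of all 12 mice. The hepatocyte markers Alb, Ttr, Apoa1, Serpina1c and Asgr1 were abundant, with Alb at 12556 to 28511 CPM. Tat and Cps1 were lower, down to 37.8 and 73.9 CPM in wild type females, and Ass1 did not exceed 2.57 CPM in any liver. Females and males occupied separate runs of sample positions in the sequencing run, so sex and library position cannot be told apart. In bulk liver RNA, fewer cells of a type and less RNA per cell also cannot be told apart.

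Wild type female 1091 stood apart from the other libraries. Its pairwise differences from the other wild type females, as chi-square per degree of freedom over genes, were 46.1 and 49.2, against 6.91 to 23.0 for all other pairs within groups. The 38 genes together reached 55461 CPM in mouse 1091 and 30707 to 41722 CPM in the other 11 mice. In 17 of the 38 genes (44.7%) mouse 1091 lay above all 5 other females, and in 5 genes (13.2%) it lay below them. Over 9806 genes that passed the low count filter these shares were 25.6% and 29.6%. Proc was 3.42-fold, C8g 2.69-fold, Mbl2 2.40-fold and F12 2.18-fold higher in mouse 1091 than in the mean of the other 2 wild type females. Counts that rest on the wild type females are therefore also given without it, as are the values of single genes that were called or moved most.

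The levels of the 38 genes spanned more than 3 orders of magnitude. Fgb, the fibrinogen beta chain, was the most abundant with a mean of 7080.0 CPM over the 12 mice, followed by Fgg at 5233, F2 (prothrombin) at 4013, C3 at 3405 and Mbl2 at 2412 CPM. At the other end were Masp2 with 19.6 CPM, Masp1 with 3.86 CPM and Cfd with 3.50 CPM. Cfd did not pass the low count filter in any comparison, so 37 of the 38 genes were tested by edgeR, while DESeq2 applied its own filter.

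Between the sexes, edgeR called 4 of the 6 terminal complement genes lower in females in Siah2 KO mice, and 1 of the 6, C6, in wild type. In Siah2 KO mice, C6, C8a, C8b, C9 and Klkb1 were lower and Mbl2, F13b, Cfi and F7 higher in females than in males. These were 9 of 37 genes called by the edgeR quasi-likelihood test at an adjusted p under 0.05, against 11.5% of all 9102 genes tested, with 5 lower (5.78% of all genes) and 4 higher (5.69%). At an unadjusted p under 0.05 there were 14 genes, 6 higher and 8 lower (26.1% of all genes), and DESeq2 called 11, 4 higher and 7 lower (8.40%), adding Mbl1 and Cfd. Without Siah2 KO male 1081 the edgeR count was 5, and 1 fit of all 4 groups with a shared spread called 3, C6, C8a and C8b. The shares of all genes called in these settings are not given, so these lower counts cannot be set against all genes.

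In wild type mice edgeR called 1 gene between the sexes, C6 (1.39% of all 9335 genes). DESeq2 called 5 genes (3.74%), with C3 and Fga higher and C6, C8a and C9 lower in females. At an unadjusted p under 0.05 there were 10 genes, 6 higher and 4 lower in females (15.2%). Without mouse 1091 edgeR called 9 genes (7.73%): C3, Fga, F13b and Serpind1 were higher and C6, C8a, C8g, C9 and Proc lower in females. The median log2 fold change of females over males was 0.21 over the 37 genes and 0.05 over all genes in wild type, or 0.09 and 0.01 without mouse 1091, and -0.06 and -0.00164 in Siah2 KO mice. Leaving out mouse 1091 turned the sign of the wild type value in 7 of the 37 genes. The spread between mice within groups was taken as the biological coefficient of variation, 1 value per comparison over both groups and all genes tested. It was 0.294 in the wild type comparison, with mouse 1091 included, and 0.181 in the Siah2 KO comparison.

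In 4 genes, C6, C8a, C9 and C4bp, all 6 females lay below all 6 males, which held for 2.50% of all genes, and in 1 gene, Mbl2, all 6 females lay above all 6 males (2.00% of all genes). Without mouse 1091 Klkb1 joined the first 4 (3.96% of all genes) and F13b joined Mbl2 (2.69%).

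**Figure D1:**
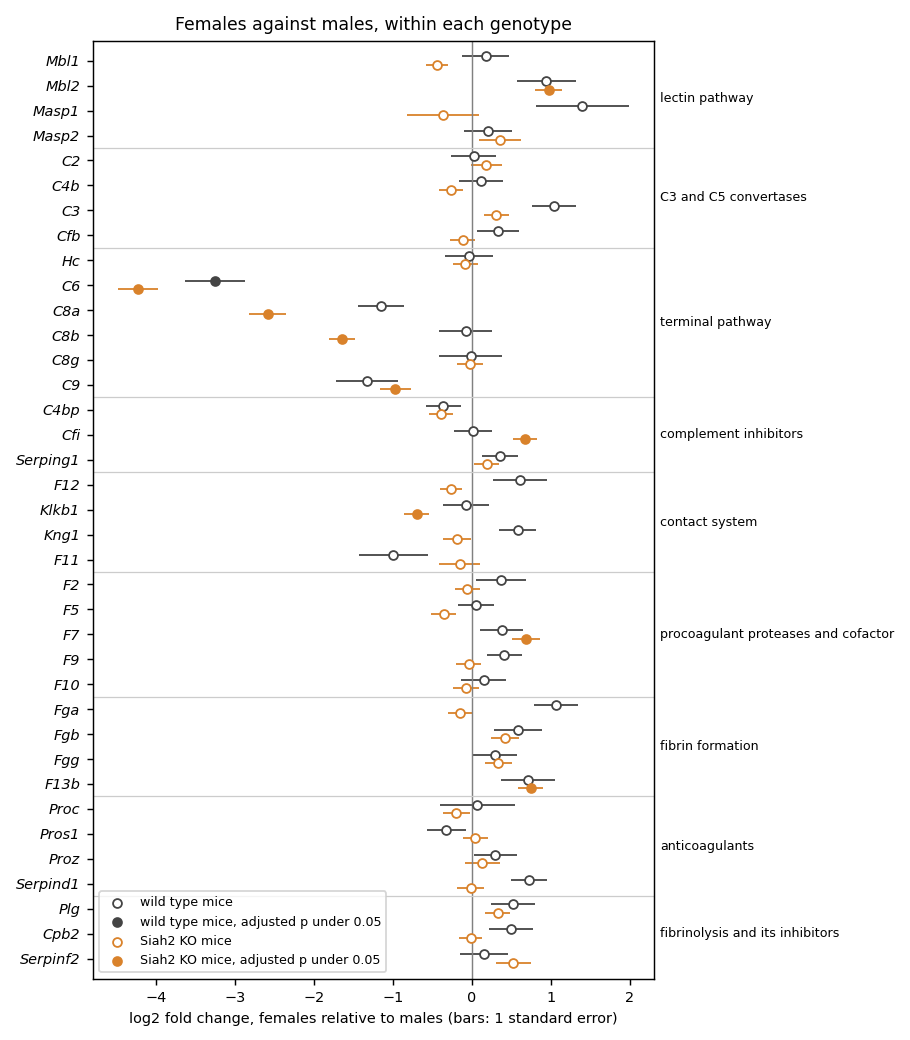
Log2 fold change of females over males for 37 genes, in wild type and in Siah2 KO mice, with bars of 1 standard error; filled points have an edgeR adjusted p under 0.05. C6 is the lowest in both genotypes, at -3.25 in wild type and -4.23 in Siah2 KO mice.

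None of the 37 genes passed the edgeR threshold between genotypes in either sex. In females the count was 0 (0% of all 9465 genes), with 7 genes at an unadjusted p under 0.05, all lower in Siah2 KO (15.6% of all genes), and DESeq2 called 3 genes (3.70%), C8a, C8b and Fga, all lower (1.55% of all genes were called lower). In females 27 genes had a negative and 10 a positive log2 fold change, with a median of -0.26 against -0.03 over all genes. Without mouse 1091 the split was 22 negative and 15 positive, with a median of -0.04 against -0.00699 over all genes, and 9 of the 37 genes turned sign. Without mouse 1091 edgeR called 8 genes (9.64% of all genes): C8a, C8b, Fga, Kng1, F13b and Serpind1 were lower and C8g and Proc higher in Siah2 KO females.

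In males the count was 0 (0% of all 8823 genes), DESeq2 also called 0 (0.0370% of all genes), and 1 gene, F13b, had an unadjusted p under 0.05 (4.05%). The median log2 fold change in males was 0.02, and the smallest edgeR adjusted p was 0.9999. With both sexes combined edgeR called 0 (0.0111% of all genes) and DESeq2 0 (0.00560%), and 2 genes, Fga and Kng1, had an unadjusted p under 0.05 (5.65%). This fit held genotype only, without a term for sex, so differences between the sexes counted toward its spread. Without mouse 1091 the combined edgeR count was also 0 (0% of all genes), with the same 2 genes at an unadjusted p under 0.05.

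The difference between the sexes in the response is the log2 fold change of the females less that of the males. By edgeR the count was 0 (0.255% of all genes), with 9 genes at an unadjusted p under 0.05, 1 positive and 8 negative (14.1%). DESeq2 called 3 genes (3.89%), C8b, C8a and Fga, all negative. These 3 and Serpind1 were called by edgeR without mouse 1091 (5.15% of all genes). The comparison of genotypes in females, the difference in response and the comparison of the wild type sexes share the same 3 wild type females, so they are not independent of each other. In 5 genes, C3, Serping1, Kng1, Fga and Serpind1, the wild type females lay above the other 9 mice (3.68% of all genes). In 3 genes, C8a, C8b and Klkb1, the Siah2 KO females lay below the other 9 (2.52%), and in 1 gene, Cfi, above them (2.42%). Without mouse 1091 the first count was 7, with F9 and F13b added, but the share of all genes was then 8.84%. The other counts became 4, with F5 added (3.59%), and 2, with Mbl2 added (3.74%).

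**Figure D2:**
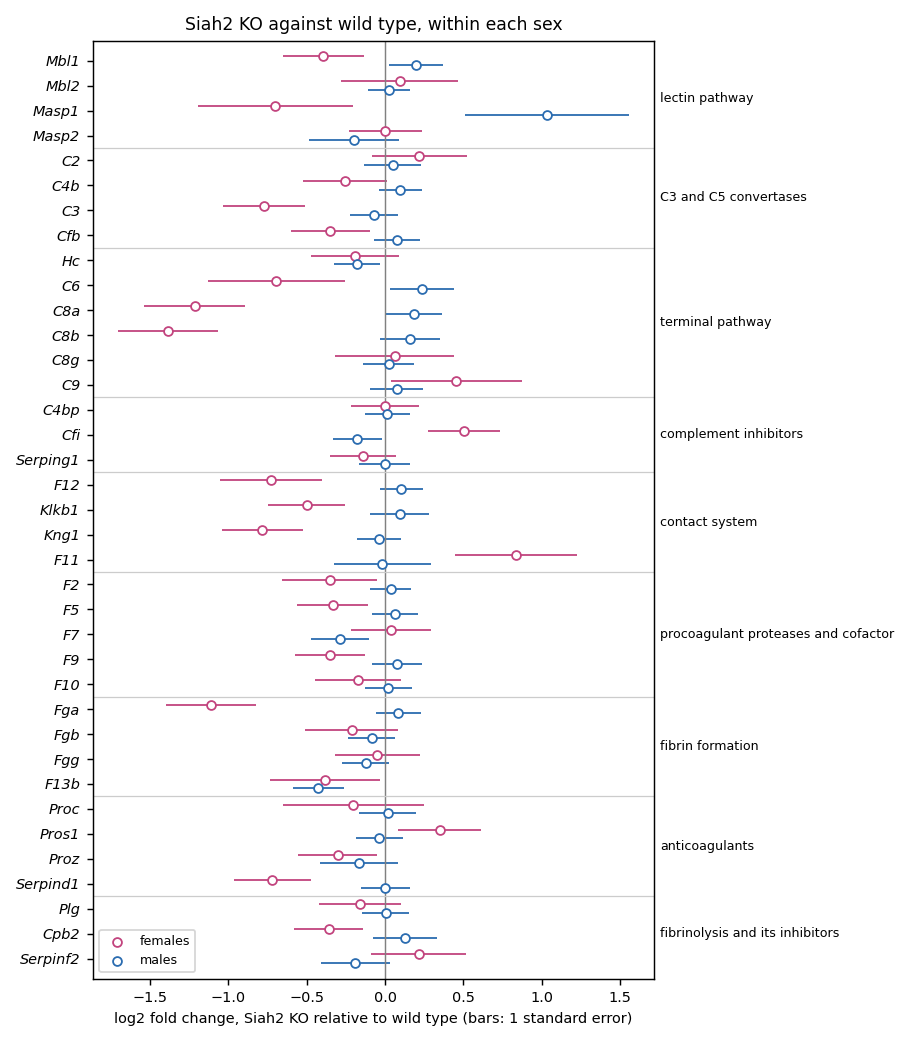
Log2 fold change of Siah2 KO over wild type for 37 genes, in females and in males, with bars of 1 standard error; no point is filled, since no edgeR adjusted p was under 0.05. C8b at -1.39, C8a at -1.22 and Fga at -1.11 are the lowest in females, and in males most points lie near 0.

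The lectin pathway begins with the mannose-binding lectins Mbl1 and Mbl2, which bind microbial sugars, and with the proteases Masp1 and Masp2 that they carry. Mbl2 (chr19:30232906-30239687 in GRCm38.p6, the RefSeq build from which all positions here were taken) was read at 2066, 2091 and 4983 CPM in the wild type females, 3906, 3258 and 2682 CPM in the Siah2 KO females, 1572, 1701 and 1652 CPM in the wild type males and 1605, 1789 and 1645 CPM in the Siah2 KO males. All 6 females lay above all 6 males, and mouse 1091 was the highest. The log2 fold change of females over males was 0.97 (SE 0.17, edgeR adjusted p = 0.00197) in Siah2 KO mice and 0.94 (SE 0.38, adjusted p = 0.267) in wild type, where it was 0.35 (adjusted p = 0.203) without mouse 1091.

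Mbl1 (chr14:41151456-41163904) was read at 169, 161 and 278 CPM in the wild type females, 162, 156 and 149 CPM in the Siah2 KO females, 232, 168 and 156 CPM in the wild type males and 213, 199 and 227 CPM in the Siah2 KO males. In Siah2 KO mice its females lay below the males, by a log2 fold change of -0.44, which DESeq2 called (adjusted p = 0.0480) and edgeR did not (adjusted p = 0.0578). DESeq2 without Siah2 KO male 1075 gave an adjusted p of 0.147. In wild type the sexes overlapped for Mbl1.

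Masp1 (chr16:23451785-23521240) was close to the limit of detection, with 4.30, 3.58 and 8.25 CPM in the wild type females, 2.69, 2.93 and 4.78 CPM in the Siah2 KO females, 3.81, 1.50 and 1.54 CPM in the wild type males and 4.13, 4.32 and 4.42 CPM in the Siah2 KO males. Its lowest library held 3 reads. The unadjusted p was 0.0381 for wild type females over males and 0.0311 for the difference in response, with edgeR adjusted p-values of 0.291 and 0.290. The log2 values were 1.40 and -1.72, and 0.92 and -1.26 without mouse 1091. Masp2 ranged from 13.8 to 25.7 CPM with overlapping groups and no call.

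C3, C4b, C2, Cfb and Cfd make the convertases that cleave C3, the step on which all complement routes meet. C3 (chr17:57203967-57228136) was read at 4969, 4603 and 6309 CPM in the wild type females, 3269, 3331 and 2796 CPM in the Siah2 KO females, 3027, 2761 and 2166 CPM in the wild type males and 2434, 2779 and 2418 CPM in the Siah2 KO males. Every wild type female lay above every other mouse. The log2 fold change of Siah2 KO over wild type in females was -0.77 (SE 0.26, edgeR adjusted p = 0.200, DESeq2 adjusted p = 0.0598), so neither tool called it. For wild type females over males it was 1.04 (SE 0.28, edgeR 0.118, DESeq2 0.00921), and without mouse 1091 edgeR called it at 0.86 (adjusted p = 0.0180). With each mouse left out in turn it ranged from 0.86 to 1.14, at edgeR adjusted p-values of 0.0180 to 0.451.

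The other convertase genes showed no call by either tool in any comparison apart from Cfd. C4b, whose reads may be shared with its near-identical neighbour C4a, ranged from 1012 to 1736 CPM. Cfb, the protease of the alternative route, ranged from 1330.1 to 2352 CPM, and C2, its counterpart in the classical and lectin routes, from 32.7 to 78.6 CPM. Cfb and C2 lie side by side on chromosome 17, 87 bases apart.

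Cfd, also called adipsin, is the protease that activates factor B and is known mainly as a product of fat cells. It held 0.717, 0 and 0.317 CPM in the wild type females, 0, 0 and 0 CPM in the Siah2 KO females, 2.28, 0.500 and 2.47 CPM in the wild type males and 25.9, 3.45 and 6.38 CPM in the Siah2 KO males. Mouse 1075 alone accounted for 69 of the 118 reads over all libraries, and the 3 Siah2 KO females had 0 reads, which allows up to 0.808, 1.10 and 1.79 CPM in these libraries by the limit of 3 counts. DESeq2 called it lower in Siah2 KO females than in males (adjusted p = 4.35e-06) and gave it no adjusted p without mouse 1075. Of 6 fat markers, Retn, Plin1 and Adig had no read in any library, Adipoq had 1 read, in mouse 1075, and Lep did not exceed 0.598 CPM. Fabp4, which is not restricted to fat, was at 47.2 to 118 CPM. The summed fat list was 64.3 to 101 CPM in Siah2 KO males and 58.0 to 109.9 CPM in Siah2 KO females.

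The terminal pathway genes encode C5 (Hc in the mouse), C6, the 3 chains of C8 (C8a, C8b and C8g) and C9, which join in this order into the membrane attack complex. C6, C8a and C9 had lower levels in all 6 females than in all 6 males, C8b was lowest in the Siah2 KO females, while Hc and C8g overlapped between all groups.

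C6 (chr15:4727067-4804045) was read at 20.8, 9.55 and 7.30 CPM in the wild type females, 6.46, 7.70 and 9.57 CPM in the Siah2 KO females, 99.0, 119.6 and 144 CPM in the wild type males and 104, 161 and 167 CPM in the Siah2 KO males. The highest female lay far below the lowest male. Group means were 12.5 ± 7.23 CPM (SD, n = 3) in wild type females and 121 ± 22.5 CPM (SD, n = 3) in wild type males, a log2 fold change of -3.25 (SE 0.38, edgeR adjusted p = 0.00193). In Siah2 KO mice the means were 7.91 ± 1.56 CPM (SD, n = 3) and 144 ± 35.2 CPM (SD, n = 3), a log2 fold change of -4.23 (SE 0.25, adjusted p = 4.29e-08). Leaving out any 1 mouse kept the log2 fold change between -3.83 and -3.01 in wild type and between -4.42 and -4.08 in Siah2 KO mice, and the call held each time. Between genotypes the log2 fold change was -0.69 (adjusted p = 0.488) in females, -0.96 (adjusted p = 0.132) without mouse 1091, and 0.24 (adjusted p = 0.9999) in males. Mouse 1089 was the highest of the 6 females.

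C8a (chr4:104815679-104876487), the chain that inserts into the membrane, was read at 309, 192 and 268 CPM in the wild type females, 82.4, 88.0 and 164 CPM in the Siah2 KO females, 755, 471 and 523 CPM in the wild type males and 578, 727 and 689 CPM in the Siah2 KO males. The Siah2 KO females were lowest, the wild type females lay above them without overlap, and the males of both genotypes lay above all females. In Siah2 KO mice females over males gave a log2 fold change of -2.59 (SE 0.23, edgeR adjusted p = 3.77e-06). In wild type it was -1.15 (SE 0.29, edgeR 0.0904, DESeq2 0.00484), and without mouse 1091 edgeR called it at -1.21 (adjusted p = 0.0189). With each mouse left out in turn it ranged from -1.34 to -0.93, at edgeR adjusted p-values of 0.0189 to 0.308. The log2 fold change of Siah2 KO over wild type was -1.22 in females (SE 0.32, edgeR 0.125, DESeq2 0.0164) and 0.18 in males (SE 0.18). The female value ranged from -1.61 to -1.03 with each mouse left out, at edgeR adjusted p-values of 0.0331 to 0.420.

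C8b (chr4:104766317-104804548), the chain that docks C8 on the growing complex, was read at 200.1, 88.1 and 106 CPM in the wild type females, 50.4, 52.8 and 49.0 CPM in the Siah2 KO females, 163, 102 and 162 CPM in the wild type males and 144, 182 and 153 CPM in the Siah2 KO males. The 3 Siah2 KO females lay within 4 CPM of each other and below all other mice, while the other 3 groups overlapped. In females, Siah2 KO over wild type gave a log2 fold change of -1.39 (SE 0.32, edgeR adjusted p = 0.108, DESeq2 0.00619), which was -1.50 without mouse 1091 and called by edgeR (adjusted p = 0.0115). Without mouse 1089, the highest of the group, it was -0.95 and not called (edgeR adjusted p = 0.356). Females over males gave -0.08 (SE 0.34) in wild type, 0.03 without mouse 1091, and -1.64 (SE 0.16, adjusted p = 1.16e-05) in Siah2 KO mice.

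The difference in response between the sexes was -1.54 for C8b (SE 0.39, edgeR adjusted p = 0.101, DESeq2 0.0136) and -1.40 for C8a (SE 0.39, edgeR 0.117, DESeq2 0.0216). Both were called by edgeR without mouse 1091, at -1.66 (adjusted p = 0.0194) and -1.36 (adjusted p = 0.0433).

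C8g, the third chain of C8 and a lipocalin rather than a pore protein, differed from its partners. It was at 355 to 1042 CPM in wild type females, the top value being mouse 1091, 627 to 648 CPM in Siah2 KO females, 587 to 724 CPM in wild type males and 519.8 to 758 CPM in Siah2 KO males. Its log2 fold change was 0.06 for Siah2 KO over wild type females, -0.02 for wild type females over males and -0.02 for Siah2 KO females over males. Once mouse 1091 was left out, edgeR called it higher in Siah2 KO than wild type females (0.72, adjusted p = 0.0272) and lower in wild type females than males (-0.71, adjusted p = 0.0399). The ratio of C8a to C8g reads in a library was 0.870, 0.457 and 0.257 for the wild type females, 0.127, 0.138 and 0.262 for the Siah2 KO females, 1.04, 0.794 and 0.891 for the wild type males and 0.763, 1.40 and 1.02 for the Siah2 KO males. The ratio in mouse 1091 lay within the Siah2 KO female range, although its C8a level, at 268 CPM, lay above every Siah2 KO female. Its ratio of C8b to C8g reads, at 0.102, lay above the Siah2 KO female range of 0.0778 to 0.0831.

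C9 (chr15:6445346-6498825), which forms the wall of the pore, was read at 122, 101 and 35.5 CPM in the wild type females, 107, 88.3 and 164 CPM in the Siah2 KO females, 209, 176 and 274 CPM in the wild type males and 238, 228 and 235 CPM in the Siah2 KO males. All females lay below all males, and mouse 1091 was the lowest. Females over males gave a log2 fold change of -0.97 (SE 0.20, edgeR adjusted p = 0.00574) in Siah2 KO mice and -1.33 (SE 0.39, edgeR 0.153, DESeq2 0.0254) in wild type, where edgeR called it without mouse 1091 at -0.97 (adjusted p = 0.0248). Omitting any single wild type mouse gave values from -1.68, without mouse 1089, to -0.97, at edgeR adjusted p-values of 0.0248 to 0.469. Between genotypes the log2 fold change of C9 was 0.46 in females (SE 0.42), which was 0.09 without mouse 1091. In males it was 0.07 (SE 0.17), and neither sex gave a call. Hc ranged from 844 to 1534 CPM, and none of its log2 fold changes exceeded 0.20 in size with all mice. Without mouse 1091 Hc was at -0.37 for wild type females over males (adjusted p = 0.257) and 0.29 for the difference in response (adjusted p = 0.550).

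**Figure D3:**
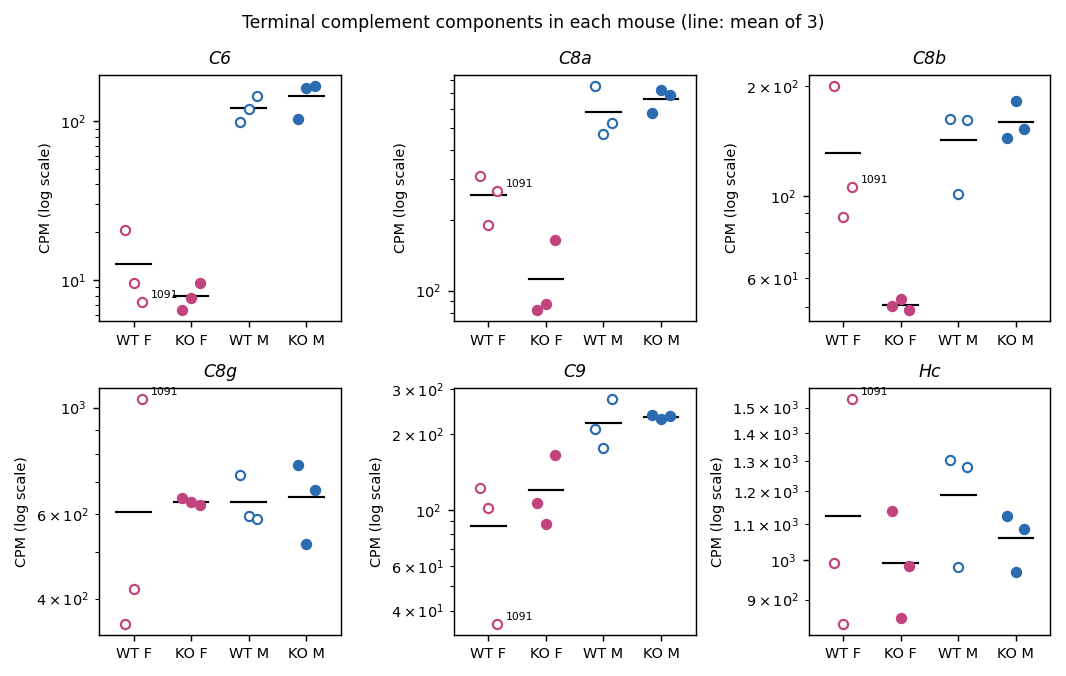
CPM of the 6 terminal pathway genes in each mouse on a log axis, by group; open symbols are wild type, filled symbols Siah2 KO, and the line is the mean of 3 mice. For C6, C8a and C9 the females lie below the males, and for C8b the Siah2 KO females, at 49.0 to 52.8 CPM, lie below all others.

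C8b and C8a are neighbours on chromosome 4, 11.13 kb apart with no protein-coding gene between them. C6 and C9 lie on chromosome 15, 1641 kb apart with 8 protein-coding genes between. Of the 38 genes, 29 had an entry in the RefSeq promoter table of build GRCm38.p6, and Masp1, C2, C4b, Cfb, Cfi, Serping1, Kng1, Proc and Plg had none. The 250 bases before the start site of the promoter entry are printed for the 4 terminal genes that were called lower in Siah2 KO females than in Siah2 KO males. They cover chr15:4726960-4727209 (plus strand) for C6, chr15:6445096-6445345 (plus strand) for C9, chr4:104876399-104876648 (minus strand) for C8a and chr4:104766067-104766316 (plus strand) for C8b. For C6 and C8a this start site lies inside the gene span given above, so part of each window lies within the gene. Capitals mark GTTAAT, part of the site of the hepatocyte factor HNF1, and TTCNNNGAA, the spacing known for STAT5, on either strand.

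C6: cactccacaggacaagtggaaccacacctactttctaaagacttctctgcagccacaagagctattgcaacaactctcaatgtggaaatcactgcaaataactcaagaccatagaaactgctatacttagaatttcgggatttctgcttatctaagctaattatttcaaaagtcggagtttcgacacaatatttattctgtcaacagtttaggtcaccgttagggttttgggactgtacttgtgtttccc
C9: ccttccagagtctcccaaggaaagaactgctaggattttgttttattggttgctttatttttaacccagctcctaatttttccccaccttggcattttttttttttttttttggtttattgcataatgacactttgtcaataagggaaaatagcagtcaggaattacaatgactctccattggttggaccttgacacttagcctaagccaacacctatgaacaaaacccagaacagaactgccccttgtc
C8a: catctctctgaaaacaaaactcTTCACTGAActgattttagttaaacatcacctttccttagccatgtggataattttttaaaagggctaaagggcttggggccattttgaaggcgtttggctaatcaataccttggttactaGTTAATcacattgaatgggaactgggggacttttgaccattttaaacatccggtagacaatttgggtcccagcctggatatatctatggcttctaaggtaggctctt
C8b: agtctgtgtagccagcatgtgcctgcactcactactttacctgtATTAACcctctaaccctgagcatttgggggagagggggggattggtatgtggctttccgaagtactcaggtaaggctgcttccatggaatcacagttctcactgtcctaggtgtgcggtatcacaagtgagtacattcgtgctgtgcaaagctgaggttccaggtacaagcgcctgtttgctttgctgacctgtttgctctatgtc

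Neither C6 nor C9 held either motif in this window. C8a held TTCNNNGAA starting 228 bases and GTTAAT starting 107 bases before the start site, and C8b held GTTAAT starting 206 bases before it. In windows of 300 bases, 250 before and 50 after the start site and searched on both strands, GTTAAT was found in 9 of the 29 genes and in 7.20% of 27025 promoters. TTCNNNGAA was found in 6 of the 29 genes and in 8.47% of all promoters. The C/EBP palindrome TTGCGCAA and the HNF4 motif CAAAGTCCA were in 0 of the 29 genes, and in 0.185% and 0.477% of all promoters. TTCNNNGAA reads the same on both strands, and no marked matches overlap.

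Among the complement inhibitors, Cfi (factor I, chr3:129836727-129875332), the protease that degrades C3b and C4b, was read at 566, 567 and 449 CPM in the wild type females, 816, 676 and 769.7 CPM in the Siah2 KO females, 453, 519.9 and 625 CPM in the wild type males and 534, 433 and 460.0 CPM in the Siah2 KO males. The Siah2 KO females lay above all other mice. Females over males gave a log2 fold change of 0.67 (SE 0.15, edgeR adjusted p = 0.0115) in Siah2 KO mice, a call that was lost without mouse 1070 (adjusted p = 0.0502) or 1081 (adjusted p = 0.0669), and 0.02 (SE 0.24) in wild type. For Cfi, Siah2 KO over wild type in females gave 0.50 (SE 0.23, adjusted p = 0.328). C4bp, the cofactor for C4b breakdown, was at 164 to 192 and 157 to 205 CPM in wild type and Siah2 KO females and at 213 to 252 and 229 to 252 CPM in the males, lower in every female than in every male, with log2 fold changes of -0.36 (adjusted p = 0.469) and -0.40 (adjusted p = 0.106). Serping1, the C1 inhibitor, ranged from 363 to 583 CPM, with 525 to 583 CPM in the wild type females and no call.

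The contact system starts clotting on negatively charged surfaces, with F12, plasma prekallikrein (Klkb1), kininogen (Kng1) and F11. Klkb1 (chr8:45266688-45294835) was read at 128, 127 and 199 CPM in the wild type females, 110.4, 115 and 98.1 CPM in the Siah2 KO females, 209, 129.6 and 156 CPM in the wild type males and 178, 149 and 201 CPM in the Siah2 KO males. The Siah2 KO females lay below all other mice. Females over males gave a log2 fold change of -0.70 (SE 0.16, edgeR adjusted p = 0.0115) in Siah2 KO mice, which missed the threshold without mouse 1081 (adjusted p = 0.0737), and -0.08 (SE 0.29) in wild type, or -0.36 without mouse 1091.

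Kng1 (chr16:23058220-23082078), the precursor of bradykinin, was read at 1539.9, 1406 and 1492 CPM in the wild type females, 1048, 912 and 643 CPM in the Siah2 KO females, 1125, 906 and 1018 CPM in the wild type males and 924, 1018 and 1045 CPM in the Siah2 KO males. Its reads may be shared with the near-identical Kng2. The wild type females lay above all other mice. Siah2 KO over wild type gave -0.78 (SE 0.26, edgeR adjusted p = 0.192, DESeq2 0.0778) in females and -0.04 (SE 0.14) in males. Combining the sexes gave -0.44 (SE 0.19, adjusted p = 0.866). The female value was called by edgeR without mouse 1091, at -0.76 (adjusted p = 0.0468). F12 was at 497 to 1098 CPM in wild type females, with mouse 1091 at the top, and at 422 to 544 CPM elsewhere. F11, neighbour of Klkb1 on chromosome 8, ranged from 24.2 to 101 CPM without a call.

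Of the proteases and the cofactor that lead to thrombin, F2 (chr2:91612397-91636457) was read at 3632, 3841 and 6631 CPM in the wild type females, 3769, 3935 and 3433 CPM in the Siah2 KO females, 3611, 3773 and 3888 CPM in the wild type males and 4001, 3835 and 3808 CPM in the Siah2 KO males. Apart from mouse 1091 the 11 livers lay between 3433 and 4001 CPM, and no comparison gave a call. F7 (chr8:13025506-13035809), the plasma partner of tissue factor, was read at 86.4, 68.4 and 112 CPM in the wild type females, 96.4, 105 and 74.8 CPM in the Siah2 KO females, 85.3, 59.5 and 67.5 CPM in the wild type males and 53.7, 63.5 and 57.0 CPM in the Siah2 KO males. The Siah2 KO females lay above the Siah2 KO males, while the wild type sexes overlapped. Females over males gave 0.68 (SE 0.18, edgeR adjusted p = 0.0220) in Siah2 KO mice, with adjusted p-values of 0.0802 to 0.109 when mouse 1070, 1104, 1075 or 1081 was left out, and 0.38 (SE 0.27) in wild type, or 0.14 without mouse 1091. F5, the cofactor of the prothrombinase complex, ranged from 374 to 575 CPM, F9 from 75.9 to 116 CPM and F10 from 505 to 908 CPM, all without a call. F7, F10 and Proz are adjacent on chromosome 8.

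Fibrin is made from fibrinogen, a hexamer with 2 copies each of the chains encoded by Fga, Fgb and Fgg, and F13b is the carrier subunit of the factor that crosslinks it. The 3 chain genes lie next to each other on chromosome 3 with 11.096 kb and 8.618 kb between them, and of the 3 only Fga was called by edgeR or DESeq2 in any comparison.

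Fga (chr3:83026153-83033627) was read at 2347, 2006 and 1292 CPM in the wild type females, 991, 925 and 721 CPM in the Siah2 KO females, 813, 862 and 1073 CPM in the wild type males and 1000.2, 986 and 951 CPM in the Siah2 KO males. The wild type females lay above all other mice, and mouse 1091 was the lowest of them. For Siah2 KO over wild type in females the log2 fold change was -1.11 (SE 0.29, edgeR adjusted p = 0.123, DESeq2 0.00967), and without mouse 1091 edgeR called it at -1.31 (adjusted p = 0.00434). Omitting any single female gave values from -1.31 to -0.92, the latter without mouse 1089, at edgeR adjusted p-values of 0.00434 to 0.393. In males the log2 fold change was 0.08 (SE 0.15), and with both sexes combined -0.61 (SE 0.25, edgeR adjusted p = 0.866). The difference between the sexes in the response was -1.19 (SE 0.32, edgeR 0.109, DESeq2 0.0111), or -1.39 without mouse 1091 (edgeR adjusted p = 0.00463).

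Wild type females over males gave 1.06 for Fga (SE 0.28, edgeR 0.109, DESeq2 0.0151), which edgeR called without mouse 1091 at 1.25 (adjusted p = 0.00275). With each mouse left out in turn this value ranged from 0.85 to 1.25, at edgeR adjusted p-values of 0.00275 to 0.351. In Siah2 KO mice females over males gave -0.15 (SE 0.16), and the sexes overlapped.

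Fgb (chr3:83042246-83049863) was read at 8145, 6999 and 11268 CPM in the wild type females, 9051, 7333 and 6632 CPM in the Siah2 KO females, 5547, 5372 and 7309 CPM in the wild type males and 5659, 5388 and 6256 CPM in the Siah2 KO males. Mouse 1091, the lowest wild type female for Fga, was the highest for Fgb. Siah2 KO over wild type in females gave -0.21 (SE 0.30). Fgg (chr3:83007724-83015056) was read at 5628, 5236 and 6610.4 CPM in the wild type females, 6779, 5689.9 and 4580.1 CPM in the Siah2 KO females, 4568, 4206 and 5908 CPM in the wild type males and 4709.7, 4437 and 4441 CPM in the Siah2 KO males, with -0.05 (SE 0.27) in the same comparison. Neither was called by edgeR or DESeq2 in any of the 6 comparisons. For Fgb the Siah2 KO females lay above the Siah2 KO males (log2 fold change 0.42, edgeR adjusted p = 0.135).

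The ratio of Fga to Fgb reads within a library was 0.288, 0.287 and 0.115 for the wild type females, 0.109, 0.126 and 0.109 for the Siah2 KO females, 0.147, 0.160 and 0.147 for the wild type males and 0.177, 0.183 and 0.152 for the Siah2 KO males. The ratio of mouse 1091 lay within the Siah2 KO female range, below all males. Group means were 0.230 ± 0.0997, 0.115 ± 0.00985, 0.151 ± 0.00795 and 0.171 ± 0.0163 (SD, n = 3). The ratio of Fgg to Fgb was 0.691, 0.748 and 0.587 for the wild type females, 0.749, 0.776 and 0.691 for the Siah2 KO females, 0.824, 0.783 and 0.808 for the wild type males and 0.832, 0.824 and 0.710 for the Siah2 KO males, so mouse 1091 was also the lowest there.

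**Figure D4:**
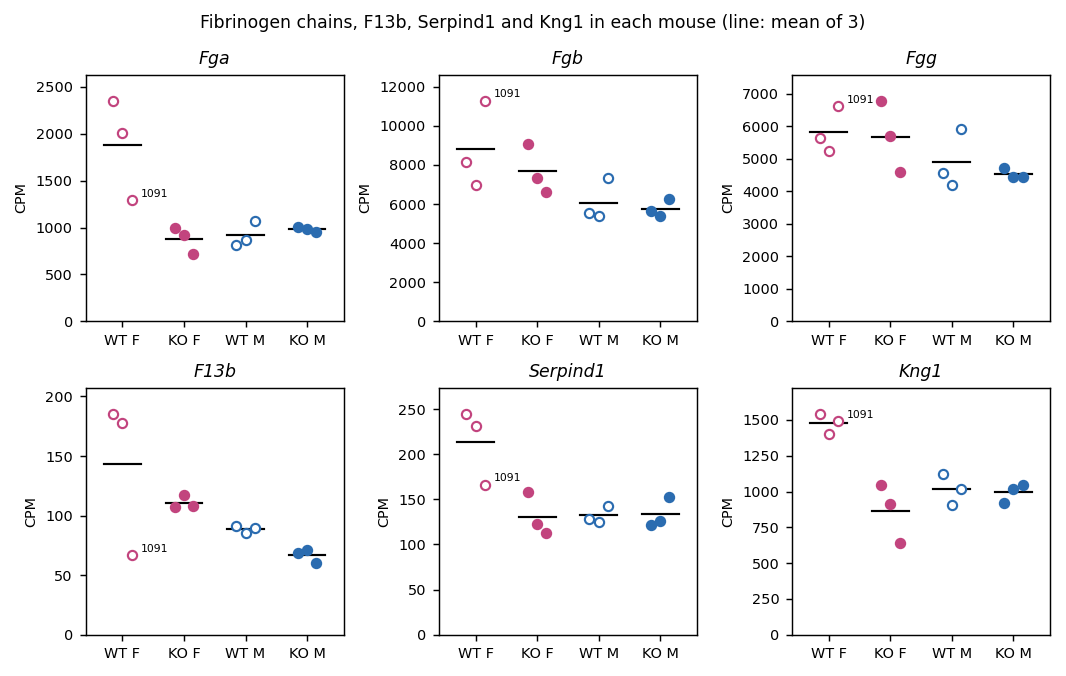
CPM of Fga, Fgb, Fgg, F13b, Serpind1 and Kng1 in each mouse on linear axes that start at 0, by group; open symbols are wild type, filled symbols Siah2 KO, and the line is the mean of 3 mice. For Fga the wild type females, at 1292 to 2347 CPM, lie above all other mice, and Fgb and Fgg overlap between the genotypes of each sex.

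The 250 bases before the start sites of the 3 fibrinogen genes are shown because these neighbours differed in their values. They cover chr3:83025903-83026152 (plus strand) for Fga, chr3:83049864-83050113 (minus strand) for Fgb and chr3:83007474-83007723 (plus strand) for Fgg, with the same motifs in capitals.

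Fga: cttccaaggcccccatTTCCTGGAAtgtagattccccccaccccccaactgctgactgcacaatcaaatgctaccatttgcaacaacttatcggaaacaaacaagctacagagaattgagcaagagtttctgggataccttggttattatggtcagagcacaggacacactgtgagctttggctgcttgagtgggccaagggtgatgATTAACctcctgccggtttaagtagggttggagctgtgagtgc
Fgb: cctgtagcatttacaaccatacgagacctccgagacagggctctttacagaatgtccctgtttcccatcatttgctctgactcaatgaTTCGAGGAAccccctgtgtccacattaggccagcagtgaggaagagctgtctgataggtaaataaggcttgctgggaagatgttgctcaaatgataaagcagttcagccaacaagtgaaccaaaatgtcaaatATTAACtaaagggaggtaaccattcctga
Fgg: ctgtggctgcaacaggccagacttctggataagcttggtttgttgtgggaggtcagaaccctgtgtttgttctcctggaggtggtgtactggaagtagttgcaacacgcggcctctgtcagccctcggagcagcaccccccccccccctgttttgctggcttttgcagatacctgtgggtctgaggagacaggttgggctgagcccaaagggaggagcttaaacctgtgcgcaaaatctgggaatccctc

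Fga held TTCNNNGAA starting 234 bases and GTTAAT starting 43 bases before the start site, and Fgb held them at 162 and 29 bases. Fgg held neither in this window.

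F13b (chr1:139501547-139523758) was read at 185, 178 and 66.6 CPM in the wild type females, 107, 117 and 108 CPM in the Siah2 KO females, 91.4, 85.1 and 89.7 CPM in the wild type males and 68.4, 71.2 and 60.2 CPM in the Siah2 KO males. Siah2 KO females lay above the males of both genotypes, Siah2 KO males lay below wild type males, and mouse 1091 lay below the other 5 females. Females over males gave a log2 fold change of 0.74 (SE 0.16, edgeR adjusted p = 0.00714) in Siah2 KO mice, which narrowly missed the threshold without mouse 1081 (adjusted p = 0.0534). In wild type it was 0.71 (SE 0.34, adjusted p = 0.362), but 1.04 without mouse 1091 (adjusted p = 0.00482). Between genotypes it was -0.43 in males (SE 0.16, unadjusted p = 0.0211, adjusted p = 0.9999), the lowest p of the 37 genes in that sex. In females it was -0.38 (SE 0.35), and -0.71 without mouse 1091 (adjusted p = 0.0250).

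Of the genes that restrain clotting, Serpind1 (heparin cofactor II) was at 166 to 244 CPM in wild type females, 112 to 158 in Siah2 KO females, 125 to 143 in wild type males and 121 to 152 CPM in Siah2 KO males. The wild type females lay above all other mice. Siah2 KO over wild type in females gave -0.72 (SE 0.25, edgeR adjusted p = 0.201), and -0.86 without mouse 1091 (adjusted p = 0.0199). Proc, the precursor of activated protein C, was at 419.8, 441 and 1469.8 CPM in wild type females and at 588 to 962 CPM elsewhere, so that mouse 1091 lay above and its 2 group mates below the other 9. Without mouse 1091 edgeR called Proc higher in Siah2 KO than wild type females (0.66, adjusted p = 0.0488) and lower in wild type females than males (-0.83, adjusted p = 0.0332). With mouse 1091 these log2 fold changes were -0.20 (SE 0.45) and 0.07 (SE 0.47). Pros1, the cofactor of activated protein C, ranged from 110.1 to 236 CPM and Proz, the protein Z that helps to inhibit factor X, from 26.7 to 62.0 CPM, both without a call.

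Plg, the precursor of plasmin, was at 1813 to 2686 CPM in wild type females, 1703 to 2043 in Siah2 KO females, 1309 to 1722 in wild type males and 1348 to 1691 CPM in Siah2 KO males. Its inhibitor Serpinf2 (alpha-2-antiplasmin) ranged from 284 to 724 CPM, and Cpb2, a carboxypeptidase that slows clot removal, from 139.6 to 284 CPM. None of the 3 was called, and the edgeR adjusted p was at least 0.153 over the 6 comparisons.

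Other genes of the pathways, 52 that belong to the same cascades or act on them and are not among the 38, were counted the same way. In wild type mice edgeR called 6 of 38 tested between the sexes, against 1.39% of all genes. C1qb (a chain of C1q), Fcna (a ficolin), Vsig4 (a receptor for C3b) and Fgl1 were higher in females, and C4a and Serpine2 lower. DESeq2 called 8 (3.74% of all genes), adding Colec10 and Serpinc1, both higher in females. Without mouse 1091 edgeR called 10 of 37 (7.73%), among them the same 6, and Colec10, Serpinc1 and C1qa, which were higher in females. In Siah2 KO mice edgeR called 9 of 35, against 11.5% of all genes, with C1qb, C1qc, Cfp (properdin), Vsig4, Vkorc1 and Fgl1 higher and C4a, Serpine2 and F2r lower in females.

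C4a, the sex-limited relative of C4b, was at 5.38 to 6.57 CPM in wild type females and 14.5 to 45.0 CPM in wild type males, which is a log2 fold change of -2.22 (edgeR adjusted p = 0.0313), and -2.31 (edgeR adjusted p = 8.36e-05) in Siah2 KO mice. Fgl1, a liver protein related to fibrinogen, was at 2289 to 3964 CPM and 624 to 886 CPM, or 2.17 on the log2 scale (adjusted p = 0.00773). Vsig4 was at 17.1 to 42.3 CPM in wild type females and 1.52 to 8.51 CPM in wild type males, and C1qb at 17.0 to 21.9 and 4.01 to 5.33 CPM. Both are markers of Kupffer cells, the macrophages of the liver. The summed level of 12 Kupffer and immune markers, 4 of which also belong to the pathways, was 538 to 745 CPM in wild type females, 419 to 967 in Siah2 KO females, 108 to 689 in wild type males and 125 to 276 CPM in Siah2 KO males. Marco alone spanned 29.7 to 306 CPM in Siah2 KO females and 5.24 to 242 CPM in wild type males. Clec4f was at 26.6 to 55.5 CPM in wild type females and 4.57 to 14.5 CPM in wild type males. In Siah2 KO females some markers had a lower mean than in wild type, such as Csf1r, and others a higher one, such as Lyz2. The part of these cells in the values of these genes was not tested.

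Between genotypes edgeR called 0 of these other genes in any comparison with all mice. At an unadjusted p under 0.05 there were 10 of 38 in females (15.6% of all genes), 1 of 33 in males (4.05%), 4 of 36 when the sexes were combined (5.65%) and 5 of 39 for the difference in response (14.1%). Without mouse 1091 edgeR called 6 of 38 in females (9.64% of all genes), all lower in Siah2 KO and among them C1qa, Fcna, Colec10, Vsig4 and Serpinc1, and 2 of 39 for the difference in response (5.15%), among them Serpina10. DESeq2 called 1 gene in females (3.70% of all genes), Fcna, with 45.7 to 63.8 CPM in wild type and 17.5 to 31.7 CPM in Siah2 KO, a log2 fold change of -1.22 (SE 0.28, edgeR adjusted p = 0.109, DESeq2 0.0152). For the difference in response it called 1 gene (3.89% of all genes), Serpina10, an inhibitor that works with protein Z (-1.17, SE 0.33, edgeR 0.123, DESeq2 0.0294).

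Several of the 38 genes rise in the acute phase response of the liver, so its markers were read beside them. The summed level of 11 acute phase genes was 5659 to 8926 CPM in wild type females, 4419.8 to 6771 in Siah2 KO females, 5297 to 6062 in wild type males and 4803 to 6427 CPM in Siah2 KO males. This sum overlapped between the genotypes in each sex, but its genes went both ways. Wild type females lay above Siah2 KO females for Itih3 (464 to 560 against 300 to 390 CPM) and Itih4 (844 to 1117 against 617 to 818 CPM). Mean Orm1, Hp, Hpx and Apcs were also lower in Siah2 KO females, with overlapping ranges. Mean Saa1, Saa2, Orm2 and Lcn2 were higher in Siah2 KO females, with overlapping ranges, and Saa3 had no read in any female. The part of the acute phase response in the values of C3, Fga, Fgb and Fgg was not tested.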

How the data were processed

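The authors trimmed, mapped and counted reads of QuantSeq 3′ libraries with Illumina's BaseSpace and deposited the raw counts of each gene, 1 table per sex. The submitters' processing notes name STAR, DESeq and mm10. The sources used here give neither the annotation nor the use of strand. Whole counts were used as deposited, with columns matched to mice by the number in their names. CPM used TMM scaling over the 12 libraries. Each comparison was fitted on its own mice across all genes that passed filterByExpr (minimum count 10) with the edgeR 4.0.16 quasi-likelihood test in R 4.3.3, two-sided, Benjamini-Hochberg adjusted over all genes tested, threshold 0.05, and only the rows of the 38 genes and of other pathway genes were read. DESeq2 1.42.0, limma 3.58.1 (voom, with and without library weights), RLE scaling, no low count filter, 1 fit of 4 groups, sex as a covariate and leaving out each mouse were alternatives. The code was tested on simulated data. Positions and promoters came from RefSeq GRCm38.p6, matched by symbol with Python 3.11.15.

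Fold changes are on the log2 scale with standard errors implied by the test. The members and lists were chosen with earlier results of these data known. Genes were given with the value of every mouse if edgeR or DESeq2 called them, if they had 1 of the 3 largest changes at an unadjusted p under 0.05 in a comparison, if they were among the 5 most abundant, or if they encoded fibrinogen. Other genes given with values were chosen after their values were seen. Genes of the other pathway list were named if called, except for an item that is not reported here. Read limits cover counting error only, since reads carried no molecular identifiers. Mice are the replicates, and a mean ± SD covers the spread between 3 of them.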

Additional observations from a re-analysis of the deposited data

Results flagged for a closer look

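For the difference between the sexes in the response to the loss of Siah2, DESeq2 called 3 genes (3.89% of all genes). For the same difference edgeR called 0 (0.255% of all genes). The log2 fold change in females less that in males was -1.54 for C8b (SE 0.39), -1.40 for C8a (SE 0.39) and -1.19 for Fga (SE 0.32). The call was made by DESeq2, with adjusted p-values of 0.0136, 0.0216 and 0.0111, and not by edgeR, with 0.101, 0.117 and 0.109. The log2 fold changes of Siah2 KO over wild type were -1.39, -1.22 and -1.11 in females and 0.16, 0.18 and 0.08 in males. Every Siah2 KO female lay below every wild type female for each of them. When each mouse was left out in turn, the edgeR adjusted p for the difference ranged from 0.0194 to 0.235 for C8b, from 0.0433 to 0.298 for C8a and from 0.00463 to 0.235 for Fga, lowest without wild type female 1091 for all 3.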

How the results depend on the processing

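The number of the 38 genes called depended on the test and on wild type female 1091. For Siah2 KO against wild type in females it was 0 by edgeR, 3 by DESeq2, 6 by limma-voom with library weights, 3 without a low count filter, 5 in 1 fit of 4 groups and 0 to 8 when each mouse was left out, 8 being without mouse 1091. DESeq2 without mouse 1091, chosen after seeing the data, called 10. For the difference between the sexes it was 0 by edgeR, 3 by DESeq2, 4 with library weights, 3 without the filter, 0 to 4 with each mouse left out and 5 by DESeq2 without mouse 1091. For wild type females against males it was 1 by edgeR, 5 by DESeq2, 7 with weights, 6 without the filter, 5 in 1 fit of 4 groups, 1 to 9 with each mouse left out and 9 by DESeq2 without mouse 1091. For Siah2 KO females against males it was 9 by edgeR, 3 in 1 fit of 4 groups (C6, C8a and C8b), 5 to 12 with each mouse left out (5 without 1081, 12 without 1105) and 8 to 11 otherwise. In males it was 0, but 1 without the low count filter, and 0 to 0 with each mouse left out, as with both sexes combined. The share of all genes called moved as well. By edgeR without mouse 1091 it rose from 0% to 9.64% for the genotypes in females. It rose from 0.255% to 5.15% for the difference between the sexes, and from 1.39% to 7.73% between the wild type sexes. DESeq2 with all mice called 3.70%, 3.89% and 3.74% of all genes in the same comparisons, in this order. Shares are not given for the other settings, so those counts cannot be set against all genes. The cause of these changes was not tested.

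For the genes that the naming rule took through a comparison, in that comparison, 293 alternative values kept their side of the threshold, 59 gained and 15 lost a call, and 0 changed sign. Over all 37 genes, leaving out mouse 1091 turned the sign of 9 in females, 12 with both sexes combined, 7 for the difference in response and 7 between the wild type sexes, Proc among those in females and between the wild type sexes. No paired analysis was possible because each mouse has its own number, which no other group shares. With 3 mice per group, and few reads for Masp1 and Cfd, small differences could not be detected.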
